A study of Danio rerio with 8 samples.

Results

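TGF-beta and BMP signalling genes were examined in epicardial cells of zebrafish ventricles as a fixed list of 55 genes, out of 37685 gene symbols counted in the study. The list was made by gene name and function, with earlier results of these data known, and all 55 symbols were found in the count files. It holds 7 TGF-beta and activin ligands, 8 genes named bmp (the BMP ligands and the protease gene bmp1a), 8 TGF-beta and activin receptors, 5 BMP receptors, 7 receptor-activated Smads and the co-Smad, 3 inhibitory Smads, 5 Id genes with tgfbi, 8 secreted or membrane inhibitors and 3 nuclear corepressors.

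Bulk RNA-seq was available for 4 libraries of cxcr4a mutants, which carry the um20 allele of this chemokine receptor gene and are labelled as having lost their coronary vessels, and for 4 libraries of wild type. All 8 came from fish aged 70 days that carry a nuclear green fluorescent reporter for tcf21, and all were made from the reporter-positive cells of a sort, so tcf21 was the gate for both groups. The comparison asks how transcription in the epicardium, the outer cell layer of the heart, differs in fish described as lacking coronary vessels. The mutation and the vessel loss cannot be told apart in this design. Whether the 4 libraries of a genotype come from separate fish or from pools is unstated in the labels, so the p-values measure only the spread between these libraries, and some of that may be technical.

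Ligands of the TGF-beta family bind pairs of type I and type II receptor kinases. TGF-beta and activin receptors act through Smad2 and Smad3, BMP receptors through Smad1, Smad5 and Smad9, and both kinds of Smad join Smad4 to enter the nucleus, where BMP signals turn on the Id genes and TGF-beta signals turn on matrix genes such as tgfbi. Noggin, gremlin and follistatin proteins trap ligands outside the cell, inhibitory Smads block the receptors, and Ski proteins repress Smad targets. In the heart, both branches are known for driving epicardial cells to leave their layer and become mesenchymal.

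Library totals were 18891079 to 25513003 counts in mutants and 19584695 to 28471786 in wild type. The epicardial markers tbx18, wt1a, wt1b, podxl and krt18b were counted in every library, and tcf21 stood at 77.7 to 115 CPM (counts scaled to library size with TMM factors) in mutants and 73.0 to 142 CPM in wild type. Among the epicardial markers aldh1a2 was nearly absent, with 15 counts summed over the mutants and 18 over the wild types, and lgals2b was counted in mutant 1 alone. Markers of other cells were present in both groups. Summed over 12 endothelial markers the level was 159.9 to 260 CPM in mutants, against 197 to 341 CPM in wild type, and over 10 mural cell markers it was 1119 to 4418 CPM in mutants, against 637 to 2196 CPM in wild type. The sum over 13 cardiomyocyte markers was 589.7 to 3153 CPM in mutants, against 597 to 2235 CPM in wild type, and that over 14 leukocyte markers was 699 to 4626 CPM in mutants, against 1403 to 3871 CPM in wild type. Among these, plvapb and lck had no counts in any library. Of the tested markers, 9 of 9 mural and 10 of 11 cardiomyocyte genes had positive log2 fold changes. The same held for 2 of 6 epicardial, 2 of 10 endothelial, 3 of 10 leukocyte and 2 of 8 erythrocyte and thrombocyte genes, and for 50.7% of all tested symbols. By edgeR 0 of these markers were called. The cardiomyocyte exception was mb, which at 1626 CPM made up most of the sum in wild type 1. Over 10 erythrocyte and thrombocyte markers the sum was 3139, 3928, 7714 and 5275 CPM in mutants 1 to 4, against 904, 713, 7997 and 12480 CPM in wild types 1 to 4, with no counts of gata1a in any library. Mitochondrial genes held 5.54% to 12.8% of the counts in mutants, against 30.8%, 14.9%, 5.98% and 5.95% in wild types 1 to 4. In bulk libraries, fewer cells of a type and less RNA per cell cannot be told apart. The mutated gene, cxcr4a, had 86, 229, 171 and 447 counts in mutants 1 to 4 and 219, 12, 118 and 27 counts in wild types 1 to 4. These counts do not test the genotype, since reads of a mutated transcript are counted too.

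No gene of the TGF-beta and BMP list passed the test between genotypes. Of the 55 genes, 48 had enough counts to be tested, and 0 of them had an adjusted p under 0.05 in edgeR's quasi-likelihood test, nor in DESeq2 (which gave none for inhbaa) or limma voom. Over all 16631 tested symbols the called share was 0.0481%, or 8 symbols (0.0120% higher and 0.0361% lower in mutants). At an unadjusted p under 0.05, edgeR had 3 list genes higher in mutants (inhbaa, tgfbi and skia) and 1 lower (id4). These are 6.25% and 2.08% of the 48, against 5.09% and 3.55% of all tested symbols (8.64% in either direction), so the list stands close to the background by this count. DESeq2 had 4 higher and 1 lower by the same measure, or 10.4% of the 48, against 10.8% of all tested symbols. By direction alone, 37 of the 48 were on the positive side (77.1%; median log2 fold change 0.30), against 50.7% of all tested symbols (median 0.0097). That lean depended on 1 library: without cxcr4a mutant 2, 23 of 48 were positive and the median was -0.01.

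**Figure D1:**
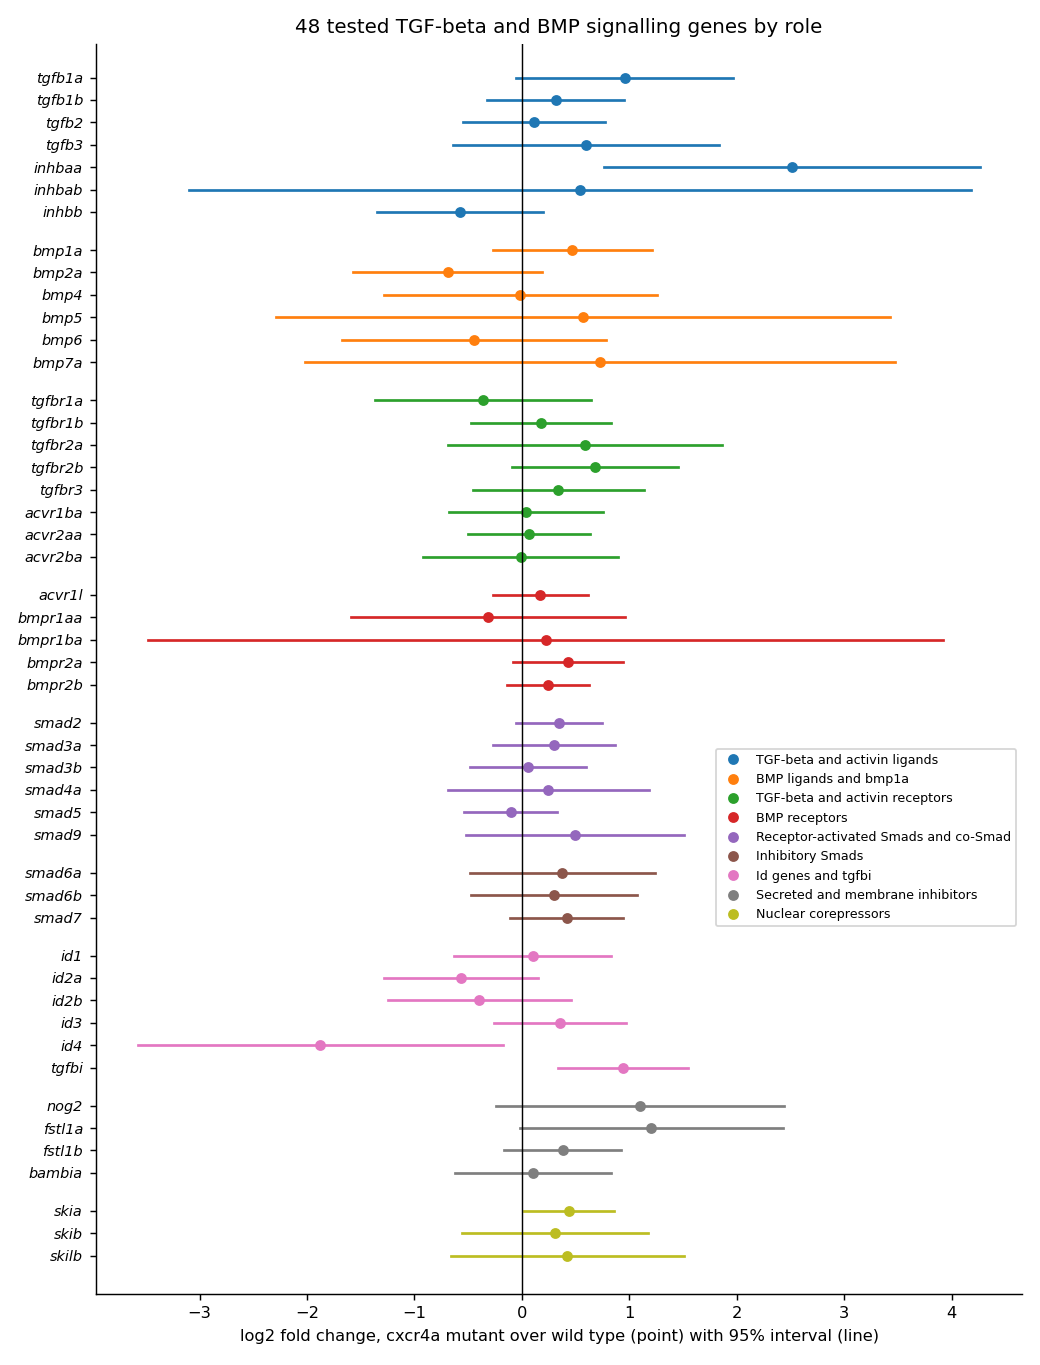
Log2 fold change of each of the 48 tested list genes, cxcr4a mutant over wild type (points), with its 95% interval from edgeR (lines), coloured by role; the vertical line marks no difference. Most points lie right of the line, but only the intervals of inhbaa, tgfbi, skia and id4 leave it out, and no gene passed after adjustment over all tested symbols.

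For 19 of the 48 genes (39.6%) the 95% interval lay within a log2 fold change of 1 in either direction, against 29.0% of all tested symbols. These intervals bound the difference for several central members. The BMP Smad gene smad5 had a log2 fold change of -0.11 with an interval of -0.54 to 0.33. For the type I receptor gene acvr1l, which carries BMP signals, it was 0.17 with an interval of -0.27 to 0.61, and for the BMP type II receptor gene bmpr2b it was 0.24 with an interval of -0.14 to 0.62. Intervals were wide for weakly counted genes, such as -3.48 to 3.92 for bmpr1ba, a BMP type I receptor gene with 0 counts in mutant 1 and in wild types 1 and 3.

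Among the TGF-beta and activin ligands, the largest difference was in inhbaa, which encodes the beta A subunit of activin. It was at 197, 31.4, 19.9 and 22.1 CPM in mutants 1 to 4, against 9.64, 5.79, 19.8 and 11.9 CPM in wild types 1 to 4. All mutants lay above all wild types, by a margin of 19.90 CPM in mutant 3 to 19.84 CPM in wild type 3, and mutant 1 stood far above the other mutants. On the log2 scale the difference was 2.51 ± 0.78 (SE from edgeR, 4 libraries a genotype; adjusted p = 0.384), and 1.04 without mutant 1 (edgeR adjusted p = 0.762). Every ± beside a log2 fold change here is this SE. DESeq2 gave no adjusted p for this gene.

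The TGF-beta 1 gene tgfb1a showed a similar picture, at 94.2, 34.2, 31.6 and 29.0 CPM in mutants 1 to 4 and 34.6, 30.2, 19.0 and 13.6 CPM in wild types 1 to 4. Only mutant 1 lay above every wild type. Its log2 fold change of 0.96 ± 0.45 (edgeR adjusted p = 0.594) was 0.36 without mutant 1. inhbb, the beta B activin subunit, leaned the other way, with 78.5, 68.0, 153 and 117 CPM in mutants and 196, 201, 140.0 and 84.3 CPM in wild types (log2 fold change -0.58 ± 0.35, edgeR adjusted p = 0.698), and the groups overlapped. The remaining TGF-beta isoform genes had log2 fold changes of 0.32 ± 0.28 for tgfb1b, 0.11 ± 0.30 for tgfb2 and 0.60 ± 0.55 for tgfb3. For inhbab, a second beta A subunit gene, all 110 wild-type counts came from wild type 3, while each mutant library had 12 to 36.

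Mutant 1 also differed from the other libraries in some genes that respond to low oxygen. The sum over 19 hypoxia-induced genes was 10107, 2639.9, 2044 and 2969 CPM in mutants 1 to 4 and 1879.7, 3034, 1741 and 2117 CPM in wild types 1 to 4. In mutant 1, pgk1, aldocb, ldha and ndrg1a were at 2157, 2064, 1696 and 1625 CPM. Not all of the genes followed: pdk1, pfkfb4b and bnip3 were highest in mutant 2 and vegfaa in mutant 4. The highest library was wild type 1 for slc2a1a, wild type 2 for adma, wild type 3 for bnip3la, and wild type 4 for hk2 and igfbp1a. Of the 17 tested hypoxia-induced genes, 14 had positive log2 fold changes, against 50.7% of all tested symbols, and edgeR called 0. Some, named after their values were seen, were above every wild type in all mutants, as were 3.48% of all tested symbols. ndrg1a was at 96.5 to 1625 CPM, against 57.2 to 75.0, and ero1a at 36.8 to 445, against 3.74 to 29.2. For pfkfb3 it was 24.4 to 97.6, against 13.3 to 20.4, and for egln3 51.7 to 193, against 4.49 to 49.6. The part of the hypoxia-induced genes in the levels of inhbaa and tgfb1a was not tested.

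**Figure D2:**
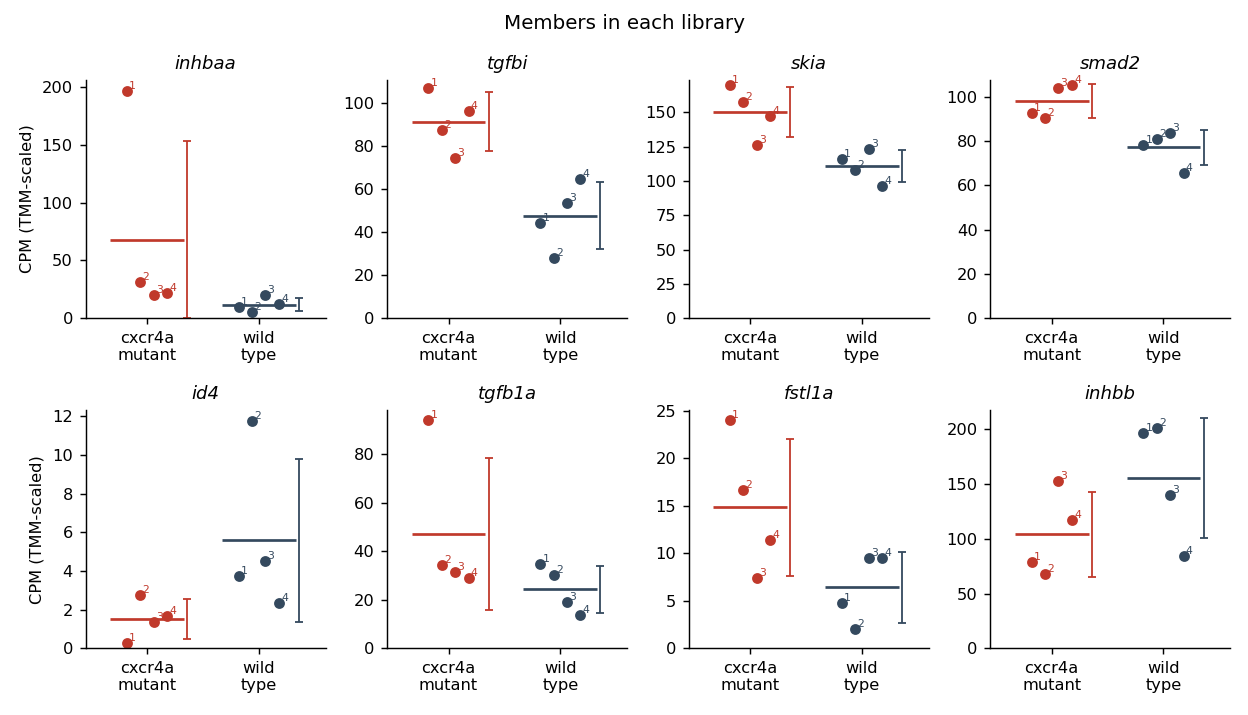
TMM-scaled CPM of 8 list genes in each library, cxcr4a mutant (red) and wild type (dark blue), with the replicate number beside each point, the mean as a horizontal line and the SD (n = 4, cut at 0) as the bar to its right. The 4 mutants exceed the 4 wild types for inhbaa, tgfbi, skia and smad2, and mutant 1 carries most of the difference in inhbaa and tgfb1a.

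None of the BMP ligand genes differed beyond the spread of libraries. bmp2a had 11.5, 23.4, 23.1 and 13.0 CPM in mutants and 22.4, 50.9, 22.4 and 19.1 CPM in wild types (log2 fold change -0.69 ± 0.39, edgeR adjusted p = 0.677). Its level in wild type 2 was the only one above 24 CPM, and the groups overlapped. bmp4 averaged 12.6 ± 4.23 CPM in mutants, against 12.7 ± 9.40 CPM in wild type (SD, n = 4 each), and bmp6, which also serves iron control in mammals, averaged 4.95 ± 2.23 CPM in mutants, against 6.75 ± 4.60 CPM in wild type. Its highest level, 13.6 CPM, was in wild type 1, the library with the largest mitochondrial share. With mitochondrial genes left out of the fit its log2 fold change was -0.49, against -0.45 with them. Leaving out rows cannot show the part of the mitochondrial share in the level of bmp6, which was not tested. bmp5 and bmp7a were counted unevenly, with 1 to 58 and 0 to 197 counts per mutant library and 2 to 46 and 6 to 105 counts per wild-type library. bmp1a is not a BMP but a protease that cuts procollagen and the BMP inhibitor chordin. It had 62.6, 50.4, 116 and 49.4 CPM in mutants and 52.2, 70.8, 39.8 and 37.8 CPM in wild types (log2 fold change 0.47 ± 0.33, edgeR adjusted p = 0.757), with its highest value in mutant 3.

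None of the receptor genes passed the test. Of 8 TGF-beta and activin receptor genes 6 had positive log2 fold changes, with a median of 0.12, and of 5 BMP receptor genes 4 did, with a median of 0.22. tgfbr2b, a TGF-beta type II receptor gene, was at 600.0, 873, 414 and 333 CPM in mutants 1 to 4 and 424, 438, 223 and 300.4 CPM in wild types 1 to 4. Mutants 1 and 2 lay above every wild type and mutants 3 and 4 within their range (log2 fold change 0.68 ± 0.35, edgeR adjusted p = 0.635). Its duplicate tgfbr2a was at 65.3 CPM in mutant 1 and 19.0 to 22.8 CPM in the other mutants, against 8.98 to 43.4 CPM in wild type, and its log2 fold change of 0.59 ± 0.57 was -0.061 without mutant 1. bmpr2a, a BMP type II receptor gene, was at 71.2, 40.1, 42.9 and 52.5 CPM in mutants and 36.7, 36.4, 37.7 and 42.4 CPM in wild types, above every wild type in 3 of 4 mutants (log2 fold change 0.43 ± 0.23, edgeR adjusted p = 0.652). The activin type II receptor genes acvr2aa and acvr2ba were at 0.06 ± 0.25 and -0.01 ± 0.41 on the log2 fold change scale, and the activin type I receptor gene acvr1ba was at 0.04 ± 0.32.

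Among the Smads that carry the signal, smad2, of the TGF-beta and activin branch, was the only one whose groups did not overlap. It was at 92.6, 90.6, 104 and 105 CPM in mutants 1 to 4 and 78.4, 81.0, 83.5 and 65.6 CPM in wild types 1 to 4. The gap was small beside the level, and the log2 fold change of 0.35 ± 0.18 (95% interval -0.05 to 0.75) did not pass (edgeR adjusted p = 0.636); leaving out any 1 library gave 0.28 to 0.39. smad3a, smad3b and the co-Smad gene smad4a had log2 fold changes of 0.30 ± 0.25, 0.06 ± 0.24 and 0.25 ± 0.42. In the BMP branch smad9 was at 409 CPM in mutant 2 and 87.2 to 157 CPM in the other mutants, against 84.1 to 162 CPM in wild type, so that its log2 fold change of 0.49 ± 0.45 was -0.15 without mutant 2.

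All 3 inhibitory Smad genes had positive log2 fold changes, 0.42 ± 0.23 for smad7, 0.38 ± 0.38 for smad6a and 0.30 ± 0.34 for smad6b, and none passed (edgeR adjusted p = 0.674, 0.846 and 0.866). smad7, which blocks TGF-beta receptors and is itself switched on by them, was at 32.7, 36.1, 28.2 and 22.9 CPM in mutants and 25.7, 23.1, 18.3 and 22.9 CPM in wild types. Mutants 1 to 3 lay above every wild type. For smad6a, which blocks BMP signals, mutant 2 stood at 62.3 CPM and the other mutants at 21.0 to 24.2 CPM, against 20.7 to 34.8 CPM in wild type, and the log2 fold change without mutant 2 was -0.14.

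None of the target genes passed the test. tgfbi, which encodes a secreted matrix protein induced by TGF-beta, was at 107, 87.6, 74.7 and 96.5 CPM in mutants 1 to 4 and 44.4, 28.1, 53.4 and 64.9 CPM in wild types 1 to 4. Every mutant was above every wild type, and the mean was 91.4 ± 13.7 CPM in mutants, against 47.7 ± 15.5 CPM in wild type (SD, n = 4 each). Its log2 fold change of 0.94 ± 0.27 (95% interval 0.33 to 1.55) had the smallest adjusted p of the list and did not pass (edgeR adjusted p = 0.329, DESeq2 0.0860), with 0.74 to 1.12 when any 1 library was left out.

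The Id genes, which encode inhibitors of bHLH transcription factors, had log2 fold changes of both signs. id4 was at 0.286, 2.78, 1.34 and 1.68 CPM in mutants 1 to 4 and 3.74, 11.8, 4.52 and 2.33 CPM in wild types 1 to 4, which is 6 to 48 counts per mutant library and 49 to 270 per wild-type library. Only mutant 2 reached into the wild-type range (log2 fold change -1.88 ± 0.76, edgeR adjusted p = 0.529). id2a was at 82.9, 191, 90.8 and 116 CPM in mutants and 201, 234, 159.96 and 118 CPM in wild types, below every wild type in 3 of 4 mutants (log2 fold change -0.57 ± 0.32, edgeR adjusted p = 0.676). id2b was at -0.40 ± 0.38 on the log2 fold change scale, id1 at 0.10 ± 0.33 and id3 at 0.36 ± 0.27, and for each of these 3 the groups overlapped.

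Of 8 inhibitors outside the nucleus, 4 were tested and all 4 had positive log2 fold changes. fstl1a encodes a follistatin-like secreted protein and was at 24.0, 16.7, 7.37 and 11.4 CPM in mutants 1 to 4 and 4.74, 2.00, 9.51 and 9.51 CPM in wild types 1 to 4. Mutant 3 was within the wild-type range and the other 3 mutants lay above it (log2 fold change 1.20 ± 0.55, edgeR adjusted p = 0.578). Its duplicate fstl1b, whose mammalian counterpart is made by the epicardium, was at 2933, 2357, 2373 and 2174 CPM in mutants and 2089.7, 1284, 2269 and 1926 CPM in wild types (log2 fold change 0.38 ± 0.24, edgeR adjusted p = 0.726). nog2, a noggin gene, was at 14.3, 32.3, 6.50 and 5.41 CPM in mutants and 6.11, 3.31, 8.59 and 9.27 CPM in wild types; mutants 1 and 2 lay above every wild type and the other mutants did not (log2 fold change 1.099 ± 0.60, edgeR adjusted p = 0.664). bambia, which encodes a receptor without a kinase, was at 0.10 ± 0.32 on that scale.

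Among the Ski corepressor genes, skia was at 170.2, 157, 126 and 147 CPM in mutants 1 to 4 and 116, 108, 123 and 96.2 CPM in wild types 1 to 4. The groups did not overlap, with mutant 3 and wild type 3 closest to each other. The log2 fold change was 0.44 ± 0.19 (95% interval 0.02 to 0.86; edgeR adjusted p = 0.555), with 0.36 to 0.51 when any 1 library was left out. skib and skilb had log2 fold changes of 0.31 ± 0.39 and 0.42 ± 0.48 and were highest in mutant 2, at 106 and 168 CPM, and without mutant 2 they were at -0.048 and -0.14. Together with inhbaa, tgfbi and smad2, skia brought the list genes above every wild type in all 4 mutants to 4 of 48 (8.33%), against 3.48% of all tested symbols. In the other direction, 0 of 48 were below every wild type in all mutants, against 2.82% (6.30% of all symbols in either direction).

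The list genes were spread unevenly over the mutant libraries. In mutant 2, 28 of the 48 (58.3%) lay above all 4 wild types, against 26.7% of all tested symbols, and 2 (4.17%) lay below all 4, against 24.3%. In mutant 1, 19 (39.6%) lay above, against 23.2% of all tested symbols, and 11 (22.9%) below, against 22.3%. In mutant 3, 12 (25.0%) lay above, against 18.4%, and 9 (18.8%) below, against 16.0%. In mutant 4, 8 (16.7%) lay above, against 19.9%, and 10 (20.8%) below, against 16.3%. Mutant 2 had the highest level of all 8 libraries for 19 of the 48 genes (39.6%), against 18.7% of all tested symbols. These 19 came from all 9 roles, and included tgfb2, tgfb3, tgfbr2b, tgfbr3, bmpr2b, smad4a, smad9, all 3 inhibitory Smad genes, id1, nog2, bambia, skib and skilb.

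**Figure D3:**
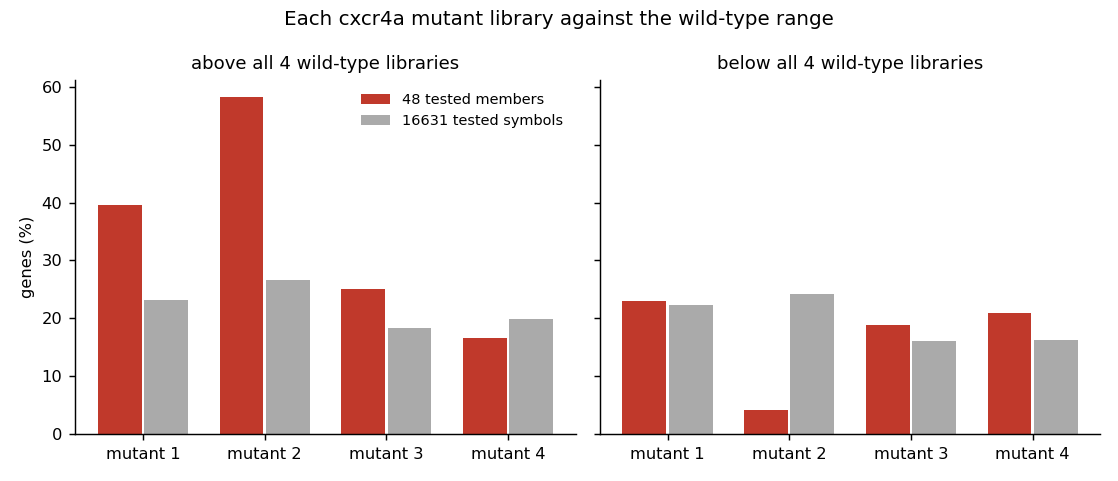
Share of genes in each cxcr4a mutant library that lay above (left panel) or below (right panel) all 4 wild-type libraries in TMM-scaled CPM, for the 48 tested list genes (red) and for all 16631 tested symbols (grey). Mutant 2 has 58.3% of list genes above the wild-type range and 4.17% below it.

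Mutant 2 stood apart in other genes as well. myh11a and rgs5a, markers of smooth muscle and pericytes, were at 2016 and 1124 CPM there and at 47.7 to 85.7 and 40.7 to 84.3 CPM in the other mutants. In wild type they were at 883 and 558 CPM in wild type 3 and 818 and 616 CPM in wild type 4, and at 36.6 to 40.9 and 54.2 to 58.7 CPM in the other wild types. The other mural markers did not all follow them: cspg4 and notch3 were also highest in mutant 2, at 88.0 and 124 CPM, whereas pdgfrb was lowest there, at 345 CPM against 538 to 886 CPM in the other mutants. rgs5b and kcne4 were highest in mutant 1, at 408 and 547 CPM, with 313 and 405 CPM in mutant 2. desma was highest in mutant 3, ndufa4l2a had no counts in mutant 2, and cd248a was counted in mutant 1 alone. The list gene tgfb3, chosen here after its values were seen, was at 283, 689, 121 and 117 CPM in mutants 1 to 4 and 136, 148, 233.5 and 283 CPM in wild types 1 to 4. Other list genes that were highest in mutant 2 had another order within wild type: smad9, tgfbr2b and id1 were lowest in wild type 3, at 84.1, 223 and 249 CPM, and smad6b was lowest in wild type 4, at 116 CPM. Over 14 immediate early and dissociation genes the sum was 10961, 17634, 3669 and 5970.3 CPM in mutants 1 to 4, against 5323, 3304, 8177 and 6425 CPM in wild types 1 to 4. Not all of them were highest in mutant 2: fosb and egr2a were highest in wild type 3, at 33.9 and 37.9 CPM, and hsp70.1 in wild type 2, at 14.9 CPM. The leukocyte markers were lowest in mutant 2, at a sum of 699 CPM. The part of these cell and handling markers in the levels of the list genes was not tested.

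**Figure D4:**
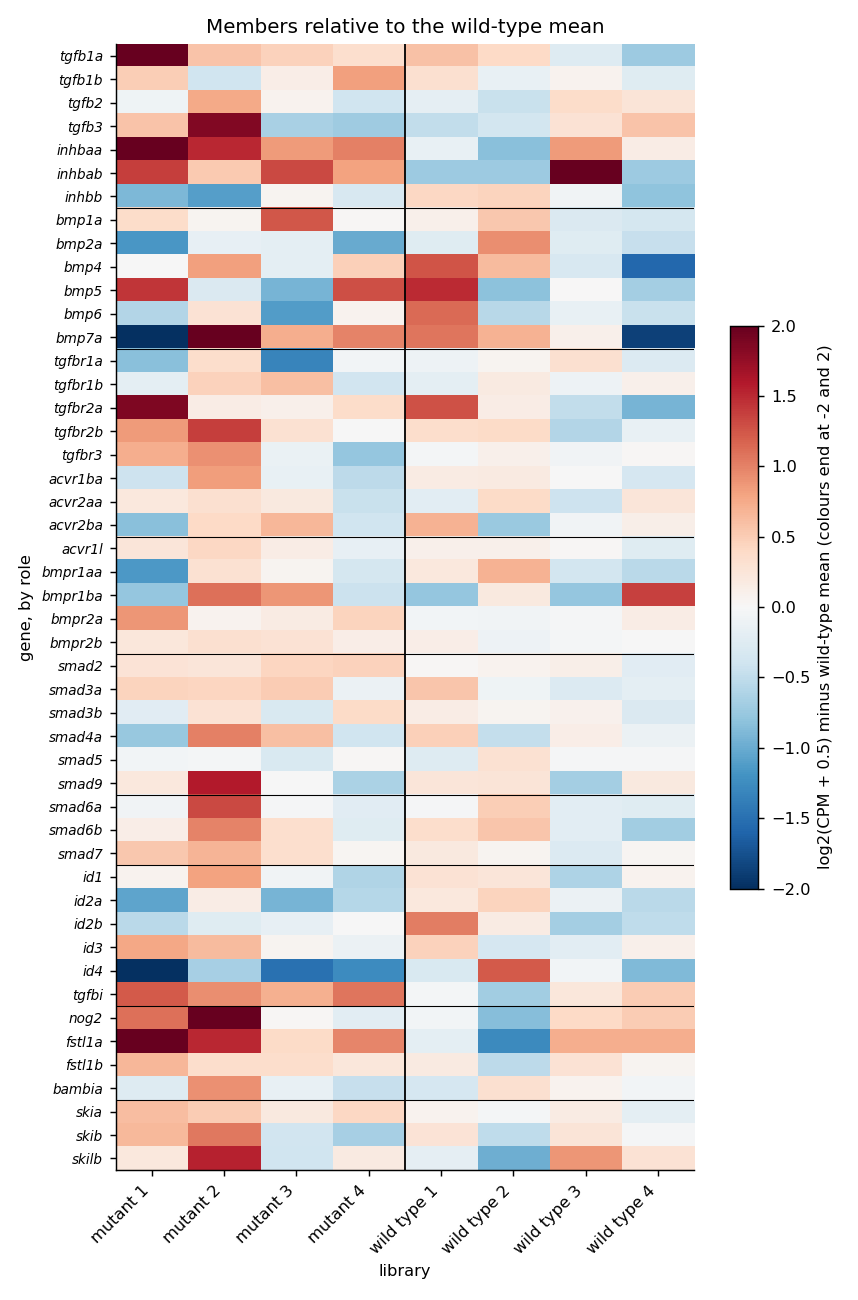
Log2 of CPM plus 0.5 for the 48 tested list genes in each library, minus the mean of the 4 wild types; rows are ordered by role (black lines separate roles), columns by genotype, and colours end at -2 and 2. Red is frequent in the mutant 2 column, while inhbaa, tgfbi, skia and smad2 are above the wild-type mean in every mutant column.

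Of the 7 list genes with too few counts to test, 3 had 0 counts in all 8 libraries: bmp2b, smad1 and fsta. Each of the 3 is listed on more than 1 row of the count files, as are 10 of the 55 genes. Over all symbols, 33.1% of those on several rows and 28.8% of those on 1 row were at 0 throughout. How reads that match several such rows were counted is unstated, so these zeros are not read as absence of the transcript. The noggin gene nog3 had 1 count over the mutants and 3 over the wild types, the gremlin genes grem1a and grem2b had 1 and 10 counts over the mutants and 1 and 0 over the wild types, and bmp7b had 77 and 71. In mutants, the 10 counts of grem2b all came from mutant 4.

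For 3 genes on several rows, the rows differed in ways that the sums above do not show. The plain row of smad3a held 2.99%, 4.59%, 0.131% and 7.08% of the counts of that symbol in mutants 1 to 4 and 37.7%, 26.7%, 12.5% and 1.40% in wild types 1 to 4, with the rest on its second row. Fitted as separate rows, the plain row had a log2 fold change of -2.46 ± 1.12 and the second row 0.60 ± 0.23 (edgeR adjusted p = 0.471 and 0.372). The plain row of smad6a likewise held 0.179% to 15.9% of that symbol in mutants and 0 to 55.7% in wild types. Its log2 fold change was -1.19 ± 1.37, and that of the second row of smad6a 0.69 ± 0.41 (edgeR adjusted p = 0.822 and 0.613). tgfbr3 encodes betaglycan, a receptor that presents ligand to the type II receptor. Its row tgfbr3_1 had 104, 51, 45 and 57 counts in mutants and 2, 13, 4 and 7 in wild types, with a log2 difference of 3.37 ± 0.78 (edgeR adjusted p = 0.125), whereas the summed gene was at 0.34 ± 0.36. Single-row counts are uncertain if a read fits more than 1 copy.

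Other genes of the pathway were taken from a separate list of 117 symbols, of which 109 had a row and 77 were tested. That list was also chosen with earlier results of these data known. Its shares here and below are therefore descriptions, and cannot show that the pathway differs from the background. By edgeR 0 of the 77 were called. At an unadjusted p under 0.05, 14 were higher in mutants (18.2%, against 5.09% of all tested symbols) and 3 lower (3.90%, against 3.55%). Positive log2 fold changes were found for 58 of 77 (75.3%; median 0.37), against 50.7% of all tested symbols (median 0.0097). Whether this lean depended on mutant 2, as that of the 48 list genes did, was not tested. DESeq2 called 4 of them at an adjusted p under 0.05 (against 1.98% of all tested symbols), gdf10a, fstl3, postna and htra3a, all higher in mutants. By role, 16 of 18 other Smads and Smad regulators, 17 of 20 other targets, 16 of 21 other extracellular regulators, 4 of 6 other ligands and 5 of 12 other receptors had positive changes. The targets junba and junbb were also in the immediate early and dissociation list. The extracellular regulator thbs1b was also in the erythrocyte and thrombocyte list.

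gdf10a encodes a BMP-related ligand. It had 37, 62, 85 and 219 counts in mutants 1 to 4 and 0 counts in each wild type, a difference of at least 144-fold upward in mutants with a floor of 3 counts over the 4 wild types. In CPM it was at 1.76, 3.60, 3.69 and 7.64 in mutants. Its edgeR adjusted p was 0.0835 with rows summed by symbol and 0.0334 with rows as deposited, where 0.350% of all rows were called.

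fstl3, a secreted protein gene of the follistatin kind whose product binds activin, was at 34.1, 16.9, 12.7 and 17.3 CPM in mutants 1 to 4 and 5.90, 2.35, 2.06 and 6.65 CPM in wild types 1 to 4, a log2 difference of 2.26 ± 0.50 (edgeR adjusted p = 0.194, DESeq2 0.00203). postna is a gene of the matrix protein periostin, a known target of TGF-beta. It was at 320 CPM in mutant 1 and 78.0, 123 and 153 CPM in mutants 2 to 4. In wild types 1 to 4 it was at 35.2, 2.79, 25.0 and 2.66 CPM, a log2 difference of 3.36 ± 0.88 (edgeR adjusted p = 0.286, DESeq2 8.83e-04). htra3a, a secreted serine protease gene, was at 163, 39.7, 49.0 and 32.4 CPM in mutants and 8.74, 10.2, 24.2 and 20.2 CPM in wild types, a log2 difference of 2.16 ± 0.57 (edgeR adjusted p = 0.287, DESeq2 0.00940) and 1.34 without mutant 1. For all 3, every mutant was above every wild type and mutant 1 was the highest library. The duplicate of postna, postnb, named after its values were seen, was not higher in mutants. It averaged 1332 ± 425 CPM in mutants, against 1602 ± 406 CPM in wild type (SD, n = 4 each). Its groups overlapped (log2 fold change -0.27 ± 0.30, edgeR adjusted p = 0.862).

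skila, a Ski-related corepressor gene and the duplicate of skilb, was at 191, 157, 125 and 141 CPM in mutants and 71.2, 60.6, 119 and 83.1 CPM in wild types (log2 fold change 0.88 ± 0.26, edgeR adjusted p = 0.333). hey1, a transcriptional repressor gene known best as a Notch target, was at 27.6, 21.9, 36.5 and 26.1 CPM in mutants and 17.9, 9.32, 14.3 and 14.4 CPM in wild types (log2 fold change 1.00 ± 0.28, edgeR adjusted p = 0.317). Neither gene overlapped between groups.

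In all, 9 of the 77 other pathway genes were above every wild type in all mutants (11.7%, against 3.48% of all tested symbols) and 2 were below (2.60%, against 2.82%). The 2, named after their values were seen, were ltbp1, which encodes a protein that stores latent TGF-beta in the matrix, and eng, which encodes the endothelial TGF-beta co-receptor endoglin. ltbp1 was at 7.10, 3.65, 6.07 and 4.29 CPM in mutants and 12.7, 8.28, 13.8 and 8.65 CPM in wild types (log2 fold change -1.04 ± 0.37, edgeR adjusted p = 0.472). The related gene ltbp3 was among the 9, at 939, 1439, 770 and 680 CPM in mutants and 634, 572, 669 and 622 CPM in wild types. Its log2 fold change was 0.62 ± 0.26 (edgeR adjusted p = 0.555). Also among the 9 were acvr1bb, the duplicate of acvr1ba, and twsg1a. Their log2 fold changes were 0.99 ± 0.40 and 1.16 ± 0.35 (edgeR adjusted p = 0.527 and 0.372). eng was at 81.1, 37.1, 69.8 and 72.4 CPM in mutants and 113, 119.6, 109 and 97.6 CPM in wild types (log2 fold change -0.76 ± 0.25, edgeR adjusted p = 0.446). The summed endothelial markers were at 160.4, 159.9, 212 and 260 CPM in mutants 1 to 4 and 321, 333, 341 and 197 CPM in wild types 1 to 4. Single markers differed from the sum. In wild type 4, flt4 was at 133 CPM, while kdrl, kdr and cdh5 were at 8.41, 2.52 and 2.61 CPM, their lowest of all 8 libraries. The lowest library was mutant 1 for tie1 and mutant 2 for tek. The part of the endothelial markers in the level of eng was not tested.

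**Figure D5:**
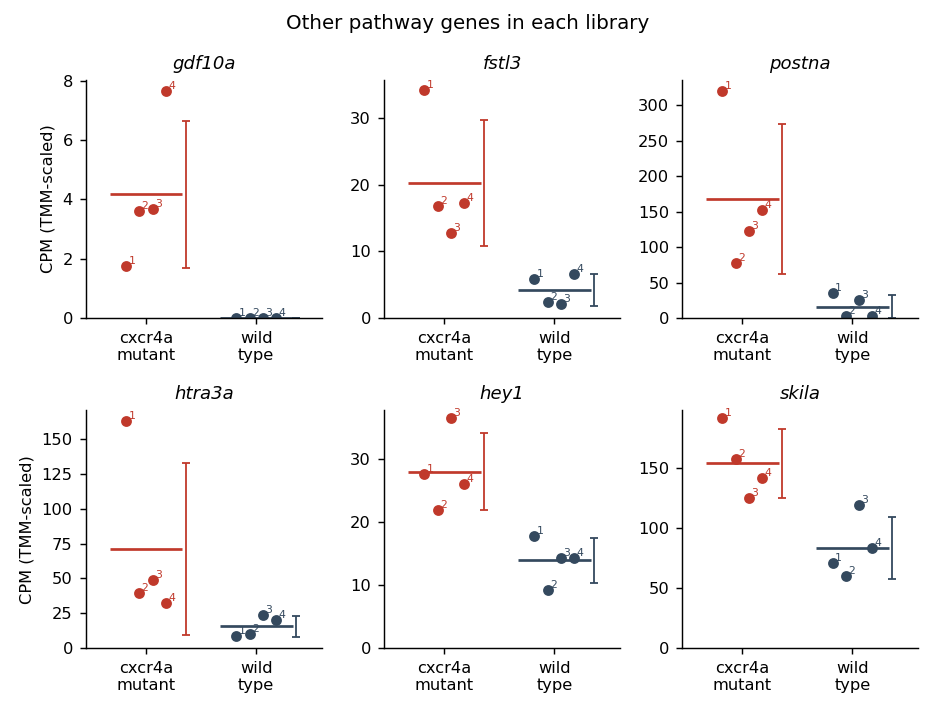
TMM-scaled CPM of the 6 other pathway genes with the smallest p in each library, cxcr4a mutant (red) and wild type (dark blue), with replicate numbers, the mean as a line and the SD (n = 4, cut at 0) as a bar. In each panel all 4 mutants lie above all 4 wild types, and gdf10a has no counts in wild type.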

How the data were processed

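The authors deposited unnormalized counts, whole numbers, for 53709 rows in each library. The submitters' processing notes name cutadapt 5.2 and STAR 2.7.11a, the counter HTSeq and the build GRCz11; settings, including those for reads matching several rows, were not given in the sources used here. Library chemistry, SMART-Seq v4 with Nextera XT per the labels' protocols, does not mark strand, so overlapping antisense genes cannot be told apart.

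Rows whose symbol ends in an added number (16024) were summed with their plain symbol, leaving 37685 symbols. The test was edgeR 4.0.16 in R 4.3.3 (filterByExpr, TMM, quasi-likelihood F-test, 2-sided, genotype as the only term, all 8 libraries), with Benjamini-Hochberg adjustment over 16631 symbols and a threshold of 0.05. Standard errors and 95% intervals came from its F statistic. The fold floor was 3 counts over a group and covers counting error only. Alternatives were DESeq2 1.42.0, limma 3.58.1 (voom), other scalings and filters, rows as deposited, a replicate block and fewer libraries. Levels of different genes were not compared, since no transcript lengths were used.

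Members and lists were chosen with earlier results of these data known. The rule for named genes took members with an adjusted p under 0.05 or groups that do not overlap, the 3 members per role and the 6 other pathway genes with the smallest p, and untested members by their counts.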

Additional observations from a re-analysis of the deposited data

Results flagged for a closer look

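In 9 of 65 checks (genes named by rule, each genotype, unlogged CPM) the extreme library stood far from the other libraries by Dixon's 95% criterion. That criterion is set for normally distributed values. The values here are unlogged and the genes were named partly by their p, so the share that chance would give is not known. In cxcr4a mutant 1, inhbaa was at 197 CPM (other mutants 19.9 to 31.4), tgfb1a at 94.2 CPM (29.0 to 34.2), tgfbr2a at 65.3 CPM (19.0 to 22.8) and htra3a at 163 CPM (32.4 to 49.0). In cxcr4a mutant 2, smad6a was at 62.3 CPM (21.0 to 24.2), and in cxcr4a mutant 4, smad3a was low at 42.9 CPM (63.2 to 66.4). In wild type, bmp2a was at 50.9 CPM in wild type 2 (others 19.1 to 22.4), bmp6 at 13.6 CPM in wild type 1 (3.88 to 5.30) and smad9 low at 84.1 CPM in wild type 3 (155 to 162).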

How the results depend on the processing

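Under all 18 alternatives no list gene was called, though DESeq2 gave no adjusted p for inhbaa. Symbols called over all genes numbered 8 as reported, 329 with DESeq2, 63 with rows as deposited, 0 with limma voom and 0 without cxcr4a mutant 1 and 2 (left out together after seeing the data); leaving out 1 library gave 0 to 9, with 0 without cxcr4a mutant 1. List genes at an unadjusted p under 0.05 numbered 4 as reported and 2 to 6 without 1 library, the 2 without cxcr4a mutant 1 or wild type 2. Other pathway genes called were 0 as reported, 4 with DESeq2 and 1 with rows as deposited. The replicate number as a block gave 0 called symbols. Deviations of same-numbered libraries from their group means had correlations of -0.08 to 0.08 across genes. For 2 of 4 mutants the highest correlation was with the wild type of the same number. The labels do not state pairing, and correlations this weak cannot decide it.

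Of 594 recomputed changes of 33 named genes, 572 kept direction and side of the threshold. Among these 572 is inhbaa with DESeq2, which kept its direction but had no adjusted p. Another 5 passed the threshold (those of gdf10a, fstl3, postna and htra3a given above) and 17 changed sign. With rows as deposited, the plain row of smad3a was at -2.46 and that of smad6a at -1.19. The second rows, which held more of the counts in each genotype, kept the sign, at 0.60 for smad3a and 0.69 for smad6a. Without cxcr4a mutant 1, tgfbr2a was at -0.061; without cxcr4a mutant 2, smad9 was at -0.15, smad6a at -0.14, skib at -0.048 and skilb at -0.14; without wild type 1, bmp6 was at 0.13. Over all 8 omissions of 1 library the ranges were -0.061 to 1.21 for tgfbr2a, -0.15 to 0.74 for smad9, -0.14 to 0.55 for smad6a, -0.048 to 0.53 for skib, -0.14 to 0.78 for skilb and -0.71 to 0.13 for bmp6. Without both mutants 1 and 2, tgfbr2a was at -0.024, tgfbr3 at -0.44, acvr1l at -0.0068, smad9 at -0.35, smad6a at -0.16, smad6b at -0.0093, nog2 at -0.20, skib at -0.57 and skilb at -0.25, and 22 of 48 list genes were positive. Apart from single rows, the cause of these changes was not tested. The median over all genes stayed between -0.03 and 0.03 in every alternative.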

Other observations

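Several ligands of the wider family were hardly counted in these sorted cells. The nodal gene ndr2 and the left-right gene lft1 had 0 counts in all 8 libraries, ndr1 had 3 counts over the mutants and 16 over the wild types, and the myostatin gene mstnb had 0. bmp10, a ligand known from the heart muscle, was at 0, 0.870, 2.08 and 0.838 CPM in mutants 1 to 4 and 30.8, 3.27, 4.43 and 0 CPM in wild types 1 to 4, or -3.33 ± 1.59 on the log2 fold change scale (SE; edgeR adjusted p = 0.602), with the highest value in wild type 1. Mitochondrial genes held 30.8% of the counts of that library, and their part in this value was not tested. bmp16 and gdf10b were evenly counted, with log2 fold changes of -0.03 ± 0.25 and 0.23 ± 0.26 (edgeR adjusted p = 0.987 and 0.863). These genes were named after their values were seen.

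Among the 48 tested list genes, 30 (62.5%) had a larger coefficient of variation over the 4 mutants than over the 4 wild types, against 47.6% of all tested symbols. The cause was not tested.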
